A study of Mus musculus with 27 samples.

Results

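Whole fetal brains of AKR/J and C57BL/6J mice were compared on gestational day (d) 17 by RNA sequencing. The comparison used 6 of the 27 libraries of the series, 3 from AKR/J and 3 from C57BL/6J fetuses, and all 55416 genes of the read-count table. All 6 fetuses were labelled female. The strains came from the Jackson Laboratory and were mated within strain, with the day of the vaginal plug counted as day 1, and whole brains were dissected from the fetuses. Both strains are inbred and carried, by their labels, no transgene or induced allele, so that the comparison is one of whole genomes and not of a single gene. The other 21 libraries were from d12 and d15 and from Cav1-null mice (B6.Cg-Cav1tm1Mls/J), a congenic line on the C57BL/6J background that lacks caveolin-1. In the study, AKR/J and Cav1-null mice were the short-lived and C57BL/6J mice the long-lived strain. Every difference below is the log2 fold change of AKR/J over C57BL/6J, and positive values mean higher expression in AKR/J.

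Inbred strains differ by single bases, by deletions and duplications of genes, and by processed pseudogenes, which arise when the messenger RNA of a gene is copied back into the genome. Such a copy can be present in one strain and absent from another, and its reads can be hard to tell from those of the parent gene. AKR/J is known for a high incidence of thymic leukemia and for variants of some metabolic genes, and it carries another haplotype of the major histocompatibility complex (MHC) than C57BL/6J. At d17 the fetal brain still makes neurons, while astrocytes, oligodendrocyte precursors, synapses and blood vessels are being formed.

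Between 26363697 and 30915744 reads were counted on genes in the 6 libraries. Expression is given as CPM, the usual counts-per-million scale, computed from all reads counted on genes in that library. Cav1, the gene that the third strain lacks, was at 33.0, 29.9 and 32.6 CPM in AKR/J and at 31.9, 36.8 and 43.0 CPM in C57BL/6J, against 0.278 to 0.551 CPM in the Cav1-null libraries of d17. Xist, the RNA of the inactive X chromosome, was at 5528, 6657 and 6122 CPM in AKR/J and at 2376, 5940 and 3207 CPM in C57BL/6J. The Y-linked genes Ddx3y, Eif2s3y, Kdm5d and Uty had at most 4 reads in any of the 6 libraries. The markers of sex and of the Cav1 allele thus fitted the labels, and C57BL/6J replicates 1 and 3 had the lowest levels of Xist.

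The libraries labelled C57BL/6J differed among themselves at genes that tell the strains apart. On d12 and d15, 78 genes had at least 1 CPM in every AKR/J library and at most 1/10 of the lowest AKR/J level in the Cav1-null libraries, and 63 of them were pseudogenes. This rule was chosen after the values were seen and used no library of d17. In the AKR/J libraries of d17, 74 to 76 of the 78 genes were above 75% of the AKR/J mean, and in the Cav1-null libraries of d17, 76 of the 78 were under 10% of it. In C57BL/6J replicate 1, 36 genes were under 10%, 31 lay from 10% to 75% and 11 were above 75%. In replicate 2, the numbers were 57, 19 and 2, and in replicate 3 they were 42, 33 and 3. The C57BL/6J libraries thus held reads of many genes that the congenic line lacked, and replicate 1 held the most. Over the 3 libraries, 25 genes were under 10% in all, 11 were over 10% in all, and 42 were over 10% in some and under it in others. Replicates of an inbred strain would be alike at such genes, and whether the fetuses labelled C57BL/6J were of the pure strain was not tested. Every fold change below is between the libraries as labelled.

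**Figure D1:**
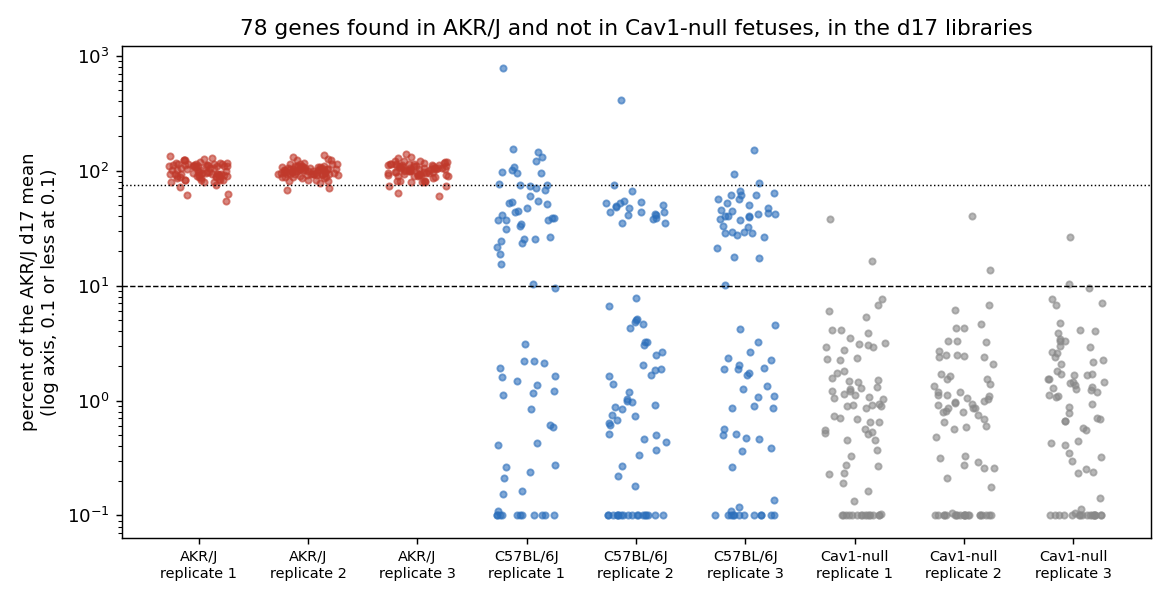
Level of each of the 78 genes in each d17 library (columns, jittered points), as a percentage of the AKR/J mean of d17 on a log axis, with lines at 10% (dashed) and 75% (dotted). In the Cav1-null libraries 76 of 78 genes lie under 10%, while in C57BL/6J replicates 1, 2 and 3 only 36, 57 and 42 do.

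Splicing varied in the same libraries. Of 11097 junctions at shared splice sites, 12 junctions in 8 genes differed in usage by at least 50 percentage points between every AKR/J and every Cav1-null library of d12 and d15. In BC051226, a pair of donor sites lies 28 bases apart. The stretch is shown from GRCm39, chr17:34128085-34128194, minus strand, because the choice between these sites separated the strains, and the first 2 bases of each intron are in capitals.
BC051226 donor sites: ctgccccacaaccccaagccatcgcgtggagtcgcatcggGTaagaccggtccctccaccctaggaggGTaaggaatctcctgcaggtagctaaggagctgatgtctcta
The second of these donors took 83.9%, 88.9% and 79.4% of the reads at the shared acceptor in AKR/J on d17 and 0% in each Cav1-null library. In C57BL/6J it took 45.2%, 1.67% and 21.7%, so that replicate 1 was between the strains and replicate 2 was close to Cav1-null. In Trmt1, a tRNA methyltransferase, the junction chr8:85416006-85416260 took 86.0%, 88.5% and 88.7% of the reads at its shared splice site in AKR/J. In C57BL/6J this junction took 6.52%, 51.0% and 45.6%, so that here replicate 1 was the one like Cav1-null (7.14% to 10.7%). Junctions with multi-mapped reads or short overhangs had been filtered out by the authors, and some junctions are listed at 0 in single libraries whose other junctions of the same gene are well covered. A Cav1 junction, for example, is listed at 0, 0 and 110 in the C57BL/6J libraries, while the adjacent one has 47, 48 and 51 reads. A value of 0 in this table is therefore not a plain count, and a usage of 0% or 100% may rest on a filtered junction. Of the junctions given here, those of Trmt1 had reads in all 9 libraries of d17.

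C57BL/6J replicate 1 also stood apart by base composition. Genes were divided by GC content into 4 groups of equal size, and the median log2 level of each group was taken relative to the mean of the 6 libraries. From the lowest to the highest GC content the medians of replicate 1 were -0.34, -0.07, 0.13 and 0.34, while those of replicate 2 were 0.14, 0.01, -0.03 and -0.08 and those of replicate 3 were -0.10, -0.01, 0.06 and 0.12. The AKR/J medians lay between 0.06 and 0.15 in the lowest and between -0.17 and -0.07 in the highest group. The fit was therefore repeated with the trend of each library with GC content and transcript length removed, and without each library.

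**Figure D2:**
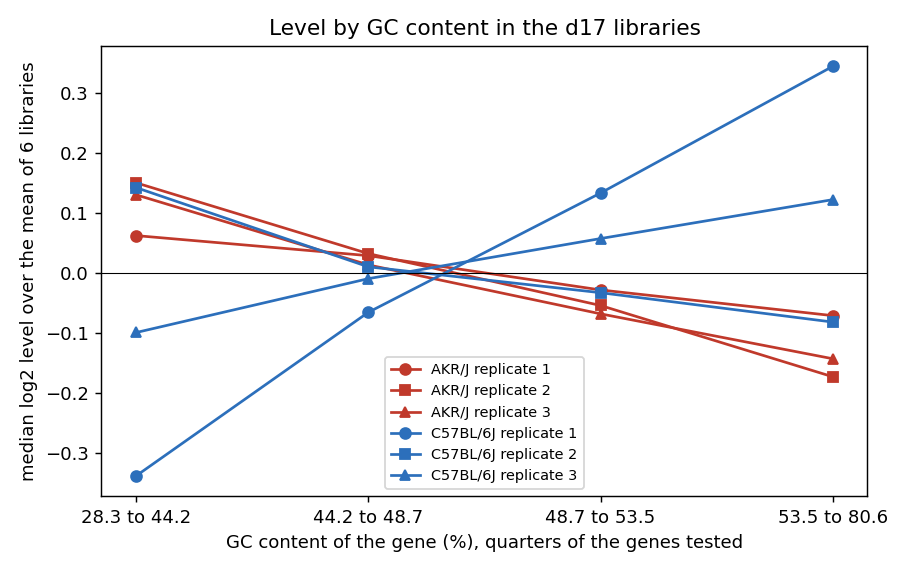
Median log2 level of the genes in each of 4 groups of GC content (x axis, percent) relative to the mean of the 6 d17 libraries, with one line per library. C57BL/6J replicate 1 climbs from -0.34 to 0.34, replicate 3 climbs from -0.10 to 0.12, and C57BL/6J replicate 2 falls with the 3 AKR/J libraries.

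Of 20207 genes tested, 150 (0.742%) were called differentially expressed (DE) by edgeR's quasi-likelihood test at a Benjamini-Hochberg adjusted p under 0.05, of which 77 (0.381%) were higher and 73 (0.361%) lower in AKR/J. The levels of all 150 did not overlap between the strains, which was so for 26.1% of all genes tested. The change was at least 2-fold for 145 and at least 8-fold for 79 of them, with the 15 genes that had no read in one of the strains counted at a floor of 3 reads over the 3 libraries of that strain. The median log2 fold change over all genes tested was -0.04. Pseudogenes had the highest share of calls, with 48 of 879 (5.46%), of which 39 were higher and 9 lower in AKR/J. Among protein-coding genes 73 of 15234 (0.479%) were called, 29 higher and 44 lower, and among long noncoding RNAs 23 of 2443 (0.941%), 8 higher and 15 lower. With each of the 6 libraries left out in turn, 47 of the 150 genes (31 higher, 16 lower, 28 of them pseudogenes) were called in every fit. Leaving out C57BL/6J replicate 2 raised the number of calls to 5478, leaving out C57BL/6J replicate 1 raised it to 265, and leaving out any of the other 4 libraries lowered it to between 54 and 68. With the trend with GC content and length removed, 238 genes were called, including 140 of the 150. Of the called genes named below, Dlx6os1, Il11ra1 and Baiap3 lost the call in that fit.

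**Figure D3:**
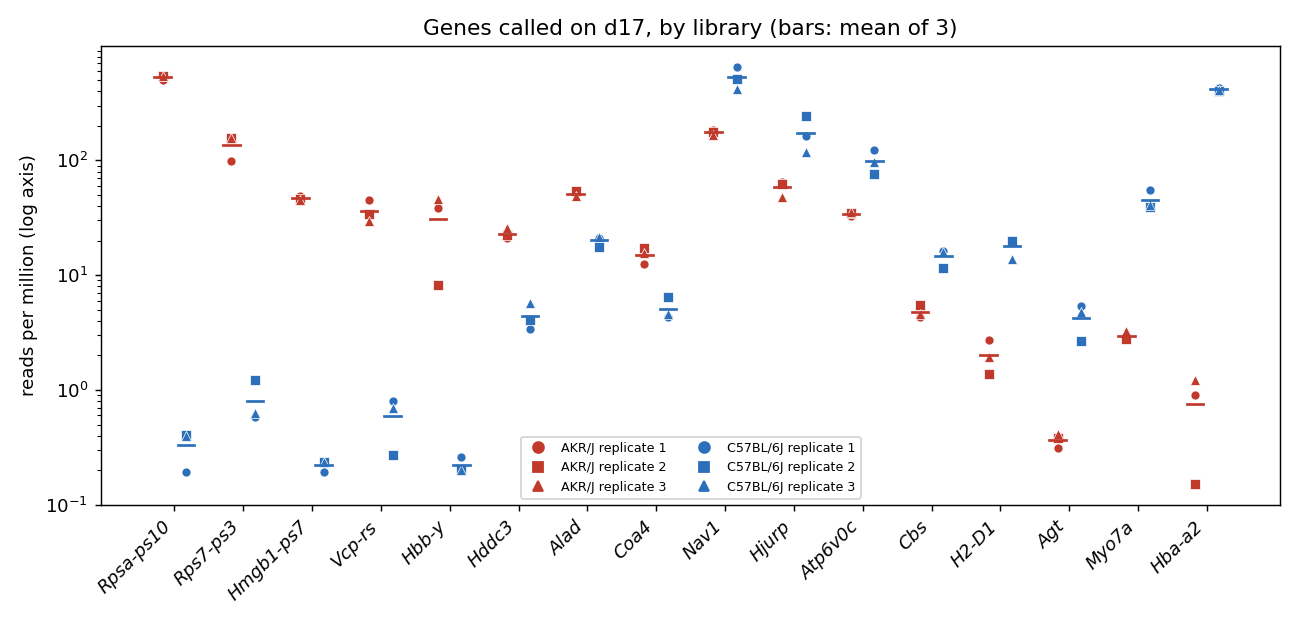
CPM (log axis) of 16 called genes in each library, with AKR/J in red, C57BL/6J in blue, a marker shape per replicate and a bar at the mean of 3. The strains do not overlap for any of the 16, and the AKR/J libraries spread most for Hbb-y and Hba-a2, where replicate 2 is lowest.

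The largest rises were of processed pseudogenes. Rpsa-ps10 (ENSMUSG00000047676, chr3:149778295-149779179, minus strand), a copy of the gene of a ribosomal protein of the small subunit, was at 501, 540 and 541 CPM in AKR/J and at 0.194, 0.404 and 0.401 CPM in C57BL/6J. All AKR/J libraries stood far above all C57BL/6J libraries, with a log2 fold change of 10.60 (SE 0.26, adjusted p = 7.59e-07). Over 885 aligned bases the copy and Rpsa had 6 mismatches and 1 gap (99.32% identity). A window of 90 bases is shown from both, taken from GRCm39, because it is by such bases that reads of copy and parent can be told apart, and the 2 differences are in capitals.
Rpsa-ps10, chr3:149778958-149779047, minus strand: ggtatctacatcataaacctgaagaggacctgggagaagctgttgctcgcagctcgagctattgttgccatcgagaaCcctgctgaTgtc
Rpsa, chr9:119958223-119958312, plus strand: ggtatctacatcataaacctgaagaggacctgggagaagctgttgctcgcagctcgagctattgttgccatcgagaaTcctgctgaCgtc
The parent Rpsa itself was at 898, 1101 and 1062 CPM in AKR/J and at 708, 1509 and 1123 CPM in C57BL/6J and was not called (log2 fold change -0.13, SE 0.24, adjusted p = 0.769). The sum of copy and parent was 1399, 1641 and 1603 CPM in AKR/J and 708, 1509 and 1124 CPM in C57BL/6J, and these ranges overlapped.

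Other copies of ribosomal protein genes behaved alike. Rps7-ps3 was at 99.3, 157 and 156 CPM in AKR/J and at 0.582, 1.21 and 0.634 CPM in C57BL/6J (log2 fold change 7.39, SE 0.33, adjusted p = 2.88e-05). Rpl17-ps5 was at 24.2, 32.6 and 34.8 CPM in AKR/J, while the C57BL/6J libraries held 2, 2 and 1 reads of it. Rpl14-ps1 was at 13.4, 20.3 and 19.0 CPM against 0.679, 1.11 and 1.07 CPM (log2 fold change 4.19, SE 0.26, adjusted p = 0.00018). Gm8730, a copy of Rplp0, was at 313, 342 and 351 CPM against 0.550, 0.909 and 0.401 CPM (log2 fold change 9.06, SE 0.28, adjusted p = 3.15e-06). In each of them the lowest AKR/J library stood well above the highest C57BL/6J library, and all were also called in each fit that left out a library.

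Copies of genes with other functions rose as well. Hmgb1-ps7, from the gene of a chromatin protein, was at 49.1, 46.2 and 45.5 CPM in AKR/J and at 0.194, 0.236 and 0.234 CPM in C57BL/6J (log2 fold change 7.68, SE 0.19, adjusted p = 7.59e-07). Vcp-rs, a copy of the gene of the ATPase VCP, was at 45.4, 34.0 and 29.9 CPM against 0.809, 0.269 and 0.701 CPM (log2 fold change 5.89, SE 0.38, adjusted p = 0.000185). Actr3-ps, from a subunit gene of the Arp2/3 actin nucleator, was at 22.7, 18.0 and 18.9 CPM against 0.291, 0.168 and 0.334 CPM (log2 fold change 6.18, SE 0.28, adjusted p = 2.88e-05). In all of these copies the strains were far apart. Gm15459, whose closest match was the chaperone gene Hspa8, was at 177, 145 and 140 CPM against 2.98, 1.82 and 2.07 CPM (log2 fold change 6.03, SE 0.26, adjusted p = 2.64e-05). Gm13394, whose closest match was Gapdh, was at 49.8, 39.1 and 38.8 CPM, and C57BL/6J had 2, 1 and 1 reads of it. Mdm4-ps had 225, 204 and 164 reads in AKR/J and 0, 0 and 1 in C57BL/6J, and Gm6278 had 282, 316 and 384 reads against 1, 0 and 3. Among the genes with at most 3 reads in every library of one strain and at least 1 CPM in every library of the other, 12 were present in AKR/J, of which 8 were pseudogenes, and 10 were present in C57BL/6J, of which 3 were pseudogenes.

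Of the 39 pseudogenes that rose, 37 matched a protein-coding transcript and 33 did so at 90% identity or more over at least 80% of their length, with identities of 92.1% to 100% (median 99.05%). For 32 of these pairs the parent was tested in the comparison, and the one parent called was Rbpj, the DNA-binding effector of Notch signalling, which lost the call without any of the AKR/J libraries or without C57BL/6J replicate 3. Rbpj was at 27.0, 21.4 and 20.6 CPM in AKR/J and at 54.4, 40.4 and 49.7 CPM in C57BL/6J and fell (log2 fold change -1.10, SE 0.19, adjusted p = 0.0451), while its copy Rbpj-ps3 was at 4.4, 5.23 and 2.39 CPM against 0.0647, 0.202 and 0.167 CPM and rose (4.74, SE 0.47, adjusted p = 0.00372). The sum of both was below the C57BL/6J level in all AKR/J libraries (31.4, 26.6 and 23 CPM against 54.5, 40.6 and 49.8 CPM). Over the 32 pairs the sum of copy and parent overlapped between the strains in 19, was higher in AKR/J in 12 and lower in 1, and among all genes tested 26.1% did not overlap. The 32 pairs have 28 parents, and Hmgb1 is the parent in 3 of the 12 pairs with a higher sum. The copy made up a median of 9.35% of this sum in AKR/J. How reads that match both copy and parent were counted is not given in the sources used here, and its part in these values was not tested.

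The globin genes moved in both directions. Hbb-y, Hbb-bh1 and Hba-x encode embryonic globins of primitive red cells, and Hba-a1, Hba-a2, Hbb-bs and Hbb-bt encode adult chains. Hbb-y was at 38.5, 8.19 and 46.5 CPM in AKR/J and at 0.259, 0.202 and 0.200 CPM in C57BL/6J (log2 fold change 7.09, SE 0.75, adjusted p = 0.00525). Hba-x was at 6.30, 1.67 and 5.58 CPM against 0.129, 0.404 and 0.267 CPM (4.06, SE 0.60, adjusted p = 0.023), and Hbb-bh1 at 1.18, 0.493 and 1.39 CPM against 0, 0.0673 and 0 CPM. These 3 embryonic genes rose, and AKR/J replicate 2 was the lowest AKR/J library in each, but each lost the call without at least one library. Hba-a2 fell, from 429, 405 and 414 CPM in C57BL/6J to 0.900, 0.152 and 1.21 CPM in AKR/J (log2 fold change -9.10, SE 0.52, adjusted p = 0.000116).

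The neighbouring Hba-a1 was at 2530, 808 and 3324 CPM in AKR/J and at 588, 605 and 607 CPM in C57BL/6J and was not called (log2 fold change 1.87, SE 0.44, adjusted p = 0.116). Over the 426 bases of their coding sequences Hba-a2 and Hba-a1 differ at 1 base in GRCm39. The window around this base is shown because coding reads of both genes are alike elsewhere, with the difference in capitals.
Hba-a2, chr11:32247080-32247169, plus strand: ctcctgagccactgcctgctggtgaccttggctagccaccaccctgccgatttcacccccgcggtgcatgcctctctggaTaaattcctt
Hba-a1, chr11:32234263-32234352, plus strand: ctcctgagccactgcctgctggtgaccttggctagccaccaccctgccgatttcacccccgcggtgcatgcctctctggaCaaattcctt
The split between the genes is therefore uncertain. Hbb-bs was at 6467, 2436 and 13777 CPM in AKR/J and at 1008, 1709 and 1451 CPM in C57BL/6J (log2 fold change 2.44, SE 0.55, adjusted p = 0.108). The whole list of 25 erythroid genes summed to 10672, 4099 and 19920 CPM in AKR/J, 2697, 3719 and 3362 CPM in C57BL/6J and 1082 to 3162 CPM in Cav1-null fetuses. Of its 21 genes tested, 3 were called higher (0.381% of all genes) and 1 lower (0.361%), with a median log2 fold change of 0.37. Alas2, which makes heme in red cells, was at 112, 48.5 and 205 CPM against 40.9, 43.9 and 56.5 CPM and was not called (1.36, SE 0.44, adjusted p = 0.175). The level of red cell RNA varied several-fold among the AKR/J brains, and its part in the globin differences was not tested. In whole tissue, fewer cells of a type and less RNA per cell cannot be told apart.

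Alad, the enzyme that makes porphobilinogen in heme synthesis, was at 50.6, 54.2 and 49.3 CPM in AKR/J and at 21.0, 17.6 and 21.6 CPM in C57BL/6J. It rose (log2 fold change 1.33, SE 0.15, adjusted p = 0.0072) and was the only called gene of 21 tested on a list of genes known to vary between inbred strains, against 0.742% of all genes. Its neighbours on chromosome 4 rose with it. Hdhd3 was at 8.31, 8.61 and 7.25 CPM against 1.55, 2.15 and 2.50 CPM (1.95, SE 0.22, adjusted p = 0.00738), Bspry at 4.81, 3.87 and 4.72 CPM against 0.841, 1.14 and 1.14 CPM (2.08, SE 0.24, adjusted p = 0.00799), and Orm2, an acute phase protein gene, at 1.14, 0.531 and 0.485 CPM against 0.0323, 0.0673 and 0.0334 CPM (3.88, SE 0.65, adjusted p = 0.043). Of the 4 genes, Alad, Bspry and Orm2 lost the call without at least one library. They lie between 62398268 and 63284115 on chromosome 4 of GRCm39. Alad is known to be duplicated in some inbred strains, and the number of gene copies was not measured here.

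Other genes of the strain list had values that did not pass the test. Glo1, the glyoxalase whose copy number varies between inbred strains, was at 94.8, 93.2 and 95.2 CPM in AKR/J and at 51.5, 46.5 and 70.8 CPM in C57BL/6J (log2 fold change 0.73, SE 0.17, adjusted p = 0.118). Wdfy1 was at 107, 106 and 108 CPM against 76.2, 55.3 and 39.96 CPM (0.87, SE 0.25, adjusted p = 0.157). In both genes the AKR/J libraries lay within a narrow range above all C57BL/6J libraries, which were spread. Gabra2, a subunit of the GABA-A receptor, was at 96.2, 108 and 118 CPM against 54.3, 120 and 70.2 CPM, and the strains overlapped (0.40, SE 0.24, adjusted p = 0.353). Among members with larger differences, the protease gene Ctse was at 1.73, 0.455 and 1.28 CPM against 0.162, 0.0673 and 0.267 CPM (2.75, SE 0.65, adjusted p = 0.117), the dynein gene Dnah8 at 12.6, 10.7 and 9.12 CPM against 4.92, 2.19 and 6.71 CPM (adjusted p = 0.171), and Thy1, a surface antigen of neurons and T cells, at 7.83, 11.4 and 18.8 CPM against 37.7, 20.2 and 34.3 CPM (-1.31, SE 0.37, adjusted p = 0.157). These genes did not overlap between the strains but were not called, and the other members tested and not named, from Hc to Apobec3, had log2 fold changes of -0.86 to 0.45.

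Soat1, which esterifies cholesterol, was at 22.8, 19.0 and 17.2 CPM in AKR/J and at 27.5, 27.0 and 28.1 CPM in C57BL/6J and was not called (log2 fold change -0.51, SE 0.15, adjusted p = 0.159). Its transcripts differed in structure. AKR mice are known to carry the ald allele of Soat1, which depletes the adrenal cortex of lipid. The coding part of the exon concerned is shown from GRCm39, chr1:156294251-156294338, minus strand, with the start codon in capitals, because the junction reads of the strains differed at this exon.
Soat1 exon, coding part: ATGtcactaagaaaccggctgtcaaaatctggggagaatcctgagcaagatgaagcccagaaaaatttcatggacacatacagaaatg
The junction from this exon to the next (chr1:156285575-156294250) was listed at 0 in each AKR/J library and 21, 21 and 18 reads in C57BL/6J. The junction that skips the exon (chr1:156285575-156301717) had 14, 8 and 6 reads in AKR/J and was listed at 0 in each C57BL/6J library. At this gene all C57BL/6J libraries had the pattern of the Cav1-null fetuses, which had 17 to 20 reads of the first and 0 to 2 of the second junction.

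Among 23 tested genes of MHC class I and antigen presentation, 3 were called and all fell, against 0.361% called lower among all genes. H2-D1, a classical class I heavy chain, was at 2.70, 1.37 and 1.94 CPM in AKR/J and at 20.1, 19.9 and 14.0 CPM in C57BL/6J (log2 fold change -3.19, SE 0.29, adjusted p = 0.00218). H2-T24 was at 1.28, 1.06 and 1.66 CPM against 6.89, 11.1 and 9.31 CPM (-2.77, SE 0.26, adjusted p = 0.00244). A junction assigned to H2-T24 (chr17:36305453-36348324) went the other way, with 25, 16 and 30 reads in AKR/J and 8, 4 and 3 in C57BL/6J. Another (chr17:36305453-36318291) was listed at 0 in each AKR/J library and at 4, 3 and 0 in C57BL/6J. H2-Q2 had 1, 0 and 2 reads in AKR/J and 48, 115 and 75 reads in C57BL/6J. The heavy chain H2-K1 was at 2.87, 2.58 and 2.95 CPM against 5.76, 3.57 and 4.34 CPM and was not called (-0.74, SE 0.27, adjusted p = 0.195), and B2m, the common light chain, was at 17.6, 17.3 and 20.1 CPM against 17.5, 21.8 and 19.0 CPM (-0.10, SE 0.14, adjusted p = 0.696). The peptide transporter gene Tap2 was at 0.173, 0.569 and 0.0693 CPM against 1.62, 1.04 and 0.835 CPM (-2.15, SE 0.66, adjusted p = 0.167), and H2-T10 had a value of -1.74 (SE 0.75, adjusted p = 0.234). The remaining members were not called. The median of the list was -0.50, against -0.04 over all genes tested. It was -0.30 without C57BL/6J replicate 1 and -0.39 with the trend of GC content and length removed. In AKR/J over Cav1-null on d17 it was -0.17. The list summed to 737, 674 and 657 CPM in AKR/J and 1148, 697 and 942 CPM in C57BL/6J. Reads were mapped to the genome of C57BL/6J, and the loss of AKR/J reads that differ from it at these polymorphic genes was not tested.

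Called genes of the p200 family of DNA sensors, neighbours on chromosome 1, moved in both directions, and the family was not examined as a list. Aim2, which starts the inflammasome on cytosolic DNA, fell from 9.38, 13.6 and 12.1 CPM in C57BL/6J to 5.16, 4.51 and 4.33 CPM in AKR/J (log2 fold change -1.33, SE 0.18, adjusted p = 0.0169). Mndal fell further, from 2.13, 6.36 and 3.31 CPM to 0.104, 0.114 and 0.173 CPM (-4.86, SE 0.52, adjusted p = 0.00525). Ifi202b was the called member that rose, with 37, 31 and 54 reads in AKR/J and 0, 2 and 0 in C57BL/6J. Aim2 and Ifi202b lost the call without at least one library. On chromosome 7, Trim12a, a relative of the retrovirus restriction factor TRIM5, had 2, 0 and 1 reads in AKR/J and 75, 165 and 105 in C57BL/6J and fell, as the 1 called gene of 24 tested on the list of retrovirus restriction and entry (0.742% of all genes). Its paralog Trim12c was at 13.2, 10.7 and 13.3 CPM against 3.40, 9.43 and 6.28 CPM and was not called (0.97, SE 0.31, adjusted p = 0.173). Whether reads are shared by these related genes was not tested, so that the values of single members are uncertain.

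Other protein-coding genes rose in AKR/J at moderate levels. Hddc3, a hydrolase of NADPH and ppGpp, was at 21.1, 22.3 and 25.8 CPM in AKR/J and at 3.43, 4.07 and 5.68 CPM in C57BL/6J (log2 fold change 2.38, SE 0.21, adjusted p = 0.00183). Tarbp1, an RNA methyltransferase, was at 59.9, 61.7 and 60.4 CPM against 18.4, 25.3 and 22.7 CPM (1.44, SE 0.13, adjusted p = 0.00183). Invs, a ciliary protein that acts in left-right asymmetry, was at 62.2, 58.8 and 58.5 CPM against 19.1, 25.9 and 23.5 CPM (1.37, SE 0.13, adjusted p = 0.00218). These genes, with Hdhd3, were the protein-coding genes that rose and were called in each fit that left out a library.

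Further genes rose that lost the call without at least one library. Swi5, which acts in homologous recombination, was at 318, 405 and 430 CPM against 112, 179 and 165 CPM (log2 fold change 1.33, SE 0.19, adjusted p = 0.0205). Its neighbour Pomt1, which starts O-mannosylation of dystroglycan, was at 91.8, 85.0 and 92.9 CPM against 46.9, 50.4 and 43.0 CPM (0.92, SE 0.13, adjusted p = 0.0178). Coa4, an assembly factor of cytochrome c oxidase, was at 12.6, 17.1 and 15.5 CPM against 4.33, 6.46 and 4.57 CPM (1.54, SE 0.21, adjusted p = 0.0158). In all 3 the strains were separate, although C57BL/6J replicate 2 was the C57BL/6J library closest to AKR/J in each of them. Dlx6os1, a long noncoding RNA of developing interneurons, was at 146, 142 and 95.5 CPM against 56.7, 67.6 and 60.3 CPM (1.03, SE 0.18, adjusted p = 0.0443), while the Cav1-null libraries of d17 were at 120, 133 and 111 CPM, within the AKR/J range. With the trend with GC content and length removed, the Dlx6os1 log2 fold change on d17 had an adjusted p of 0.0593. The called genes that rose included subunits of the sperm calcium channel CatSper on 2 chromosomes, and its other subunits were not examined as a list. Catsperg2 was at 8.03, 11.2 and 9.29 CPM against 0.485, 2.26 and 0.868 CPM (2.99, SE 0.46, adjusted p = 0.0287), Catspere2 was at 4.92, 5.77 and 6.28 CPM against 1.20, 2.46 and 1.40 CPM (1.74, SE 0.29, adjusted p = 0.0426), and Catspere1 had 44, 43 and 34 reads in AKR/J and none in C57BL/6J, which was at least 43.4-fold higher against a floor of 3 reads over the 3 libraries.

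Among protein-coding genes that fell, Myo7a, the unconventional myosin of sensory hair cells, was at 2.80, 2.77 and 3.29 CPM in AKR/J and at 54.9, 39.5 and 40.6 CPM in C57BL/6J (log2 fold change -3.96, SE 0.23, adjusted p = 0.000116). Rec8, a cohesin subunit of meiosis, was at 0.346, 0.493 and 0.589 CPM against 8.67, 15.7 and 11.5 CPM (-4.64, SE 0.31, adjusted p = 0.000227). Srp54a, a subunit of the signal recognition particle, was at 1.56, 1.37 and 1.73 CPM against 10.3, 12.0 and 12.2 CPM (-2.90, SE 0.20, adjusted p = 0.000269). All 3 fell without overlap and were called in every fit that left out a library. Agt, the angiotensinogen that astrocytes make, was at 0.312, 0.379 and 0.416 CPM against 5.34, 2.69 and 4.81 CPM (-3.56, SE 0.39, adjusted p = 0.00628) and was the 1 called gene of 39 tested astrocyte genes (0.742% of all genes).

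Several genes with higher expression in the brain also fell. Nav1, a microtubule protein of growing axons, was at 182, 176 and 167 CPM in AKR/J and at 653, 515 and 418 CPM in C57BL/6J (log2 fold change -1.63, SE 0.21, adjusted p = 0.0121). Hjurp, the chaperone that loads CENP-A at centromeres, was at 64.5, 62.2 and 48.3 CPM against 163, 243 and 118 CPM (-1.59, SE 0.25, adjusted p = 0.0324). Atp6v0c, a membrane subunit of the vacuolar proton pump, was at 32.5, 35.0 and 35.5 CPM against 124, 76.2 and 96.9 CPM (-1.56, SE 0.22, adjusted p = 0.0179). The AKR/J libraries lay close together in these genes and the C57BL/6J libraries were spread. Cbs, which makes cystathionine from homocysteine, was at 4.29, 5.54 and 4.58 CPM against 16.3, 11.4 and 15.9 CPM (-1.63, SE 0.23, adjusted p = 0.0179), and Ccbe1, which acts in the growth of lymphatic vessels, was at 7.10, 9.67 and 6.00 CPM against 22, 18.4 and 19.9 CPM (-1.43, SE 0.22, adjusted p = 0.0287). Ptgds, the prostaglandin D synthase of meninges and choroid plexus, was at 59.1, 60.8 and 67.9 CPM against 156, 106 and 156 CPM (-1.19, SE 0.20, adjusted p = 0.0437). At the distal end of the X chromosome, Mid1, which spans the pseudoautosomal boundary of C57BL/6, was at 4.26, 4.02 and 2.53 CPM against 15.7, 12.2 and 9.65 CPM (-1.83, SE 0.29, adjusted p = 0.0324), and the nearby Erdr1 was at 22.7, 13 and 18.1 CPM against 68.4, 49.6 and 64.2 CPM (-1.79, SE 0.24, adjusted p = 0.0142). Nav1, Hjurp, Atp6v0c, Cbs, Ccbe1, Ptgds, Mid1 and Erdr1 lost the call without at least one library.

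With a distance of at most 1 Mb between neighbours, 19 runs of 2 or more called genes were found. The longest, with 8 genes, lay from 21674761 to 25184930 on chromosome 12 and held 2 genes that rose and 6 that fell, and a run of 5 genes between 19338563 and 20328029 on the same chromosome held only genes that fell. Chromosome 12 had 19 called of 789 tested genes (2.41%), the highest share of any chromosome, against 0.742% of all genes. How many runs of neighbours such a share would give by gene density alone was not tested. Most of these were pseudogenes and unnamed transcripts. On chromosome 17 the vacuolar pump gene Atp6v0c, the exon junction gene Rnps1 and Baiap3 fell, the last without a call once the GC trend was removed, and on chromosome 4 a run of 7 from Il11ra1 to Fancg held 2 genes that rose and 5 that fell.

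With 0.742% of all genes called, lists of brain cell types and functions of this size would hold hardly any call, and they are described by their medians, most of which were below 0. Astrocyte genes had a median log2 fold change of -0.82 over 39 genes, of which 35 were below 0 and 25 had an unadjusted p under 0.05 with a lower level, against 12.8% of all genes. The list summed to 2559, 2422 and 2496 CPM in AKR/J, 5215, 2922 and 3988 CPM in C57BL/6J and 2738 to 2808 CPM in Cav1-null fetuses. C57BL/6J replicate 1 was thus far above and replicate 2 only slightly above the AKR/J libraries. Without replicate 1 the median was -0.59, and with the trend of GC content and length removed it was -0.67. Gfap, the intermediate filament of astrocytes, was at 1.80, 4.93 and 6.59 CPM in AKR/J and at 13.5, 15.3 and 15.5 CPM in C57BL/6J (-1.74, SE 0.40, adjusted p = 0.112), and Apoe, their main lipid carrier, was at 91.3, 88.2 and 100 CPM against 266, 149 and 269 CPM (-1.32, SE 0.25, adjusted p = 0.0687).

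Synaptic and vascular genes had the same lean. For synaptic vesicle and SNARE genes the median was -0.62 over 37 genes, with none called, and the list summed to 4416, 4448 and 4626 CPM in AKR/J and 7240, 5107 and 5796 CPM in C57BL/6J. Syn1, a vesicle phosphoprotein, was at 42.1, 45.1 and 40.5 CPM against 232, 48.2 and 86.6 CPM (log2 fold change -1.59, SE 0.53, adjusted p = 0.178), so that replicate 2 was at the AKR/J level and replicate 1 far above it. The vesicle fusion gene Snap25 was at 204, 234 and 252 CPM against 169, 249 and 230 CPM (0.08, SE 0.16, adjusted p = 0.784), and the strains overlapped. For 39 postsynaptic genes the median was -0.53, for 53 ion channel genes -0.34 and for 32 genes of brain endothelium and pericytes -0.77, with no gene called in any of the 3 lists. Without C57BL/6J replicate 1 these medians were -0.35, -0.19 and -0.40, and with the trend removed they were -0.26, -0.11 and -0.62. In AKR/J over Cav1-null on d17, the vesicle, postsynaptic, channel and endothelial lists had medians of -0.21, -0.31, -0.20 and -0.15. The C57BL/6J sums of the vesicle list and of the endothelial list (1301, 919 and 1069 CPM) had the order of the libraries by GC trend, with replicate 1 highest and replicate 2 lowest, while replicate 2 was not the lowest in the postsynaptic and channel lists. The part of the GC trend in the medians was not tested.

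**Figure D4:**
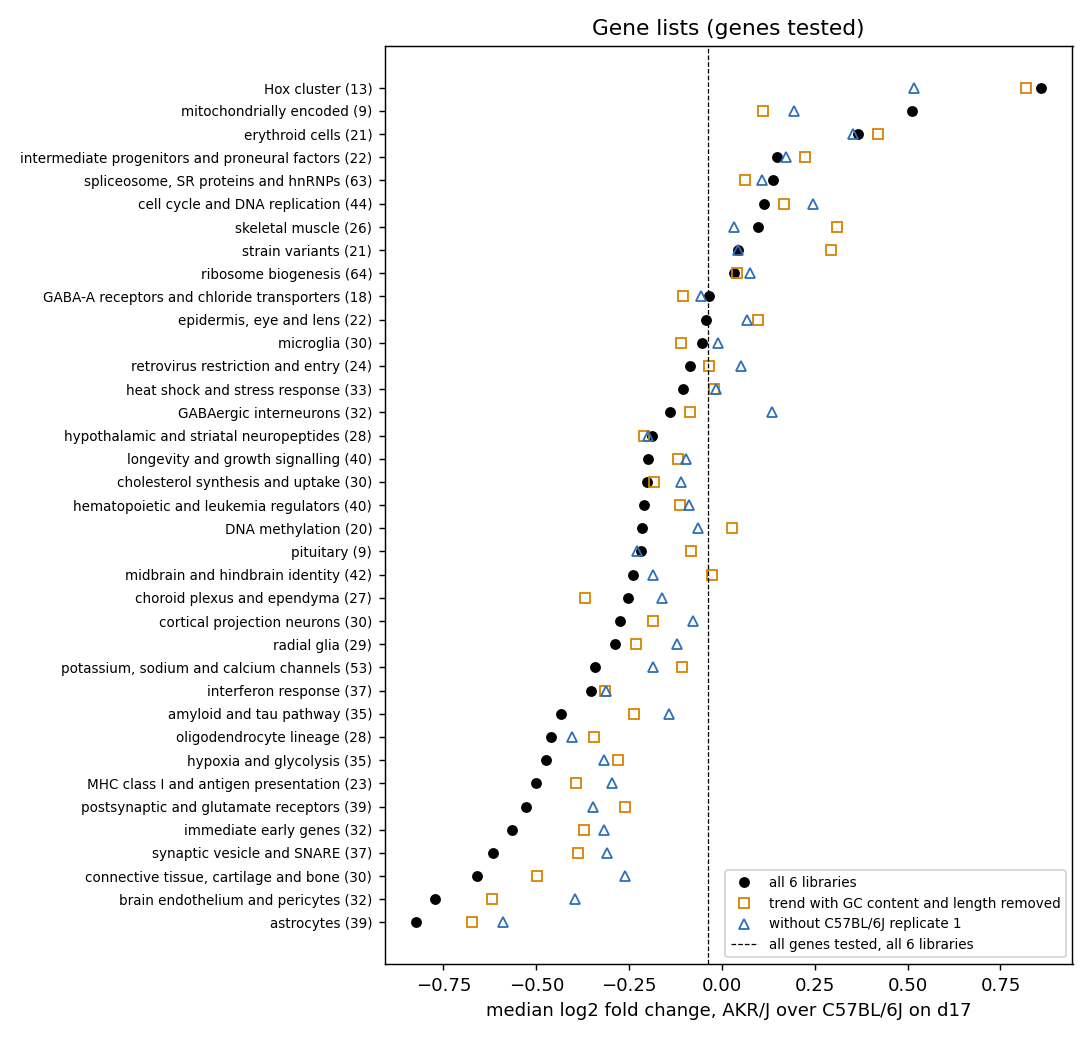
Median log2 fold change of AKR/J over C57BL/6J on d17 for each of 37 gene lists (number of genes tested in brackets) with all 6 libraries (filled circles), with the trend of GC content and length removed (squares) and without C57BL/6J replicate 1 (triangles), and the median of all genes as a dashed line. Astrocyte genes are lowest at -0.82 with all libraries and stay at -0.67 and -0.59, whereas the mitochondrial genes move from 0.51 to 0.11 and 0.20.

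The connective tissue, cartilage and bone list, which marks skull and meninges left on a brain, summed to 487, 427 and 478 CPM in AKR/J and 1808, 538 and 607 CPM in C57BL/6J, with a median of -0.66. Col1a1, the main collagen of bone, was at 11.4, 5.23 and 8.43 CPM against 514, 9.23 and 27.5 CPM (log2 fold change -4.57, SE 1.39, adjusted p = 0.164). C57BL/6J replicate 1 thus held the most RNA of these tissues. Among amyloid and tau genes, App was at 182, 160 and 180 CPM against 711, 174 and 352 CPM (-1.31, SE 0.46, adjusted p = 0.189) and Mapt, which encodes tau, at 805, 740 and 745 CPM against 2238, 863 and 1558 CPM (-1.07, SE 0.34, adjusted p = 0.172). The list had a median of -0.43 and no call, and -0.14 without C57BL/6J replicate 1.

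Some lists leaned to higher values without a call. All 9 mitochondrially encoded genes tested were above 0, with a median of 0.51, and mt-Co1 was at 12590, 16685 and 17446 CPM in AKR/J and at 5261, 16709 and 9335 CPM in C57BL/6J (log2 fold change 0.59, SE 0.36, adjusted p = 0.352). C57BL/6J replicate 2 was at the AKR/J level, and the median was 0.11 with the trend removed. Cell cycle genes had 12 of 44 members with an unadjusted p under 0.05 and a higher level, against 8.37% of all genes, and a median of 0.11, and the proliferation marker Mki67 was at 134, 104 and 86.0 CPM against 88.2, 69.4 and 75.8 CPM (0.44, SE 0.20, adjusted p = 0.246). Oligodendrocyte lineage, hypoxia and glycolysis, immediate early and interferon response lists had medians of -0.46, -0.47, -0.57 and -0.35 and no call. Without C57BL/6J replicate 1 these medians were -0.40, -0.32, -0.32 and -0.31. With the trend removed they were -0.34, -0.28, -0.37 and -0.31. The microglia list stood at -0.05, close to all genes. Ribosome biogenesis and spliceosome lists had medians of 0.03 and 0.14. All 13 Hox genes tested, which mark hindbrain and spinal cord, were above 0 with a median of 0.86, but the level varied between brains. The list of 30 Hox genes summed to 24.9, 50.3 and 125 CPM in AKR/J and 11.3, 67 and 35.9 CPM in C57BL/6J.

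Earlier days, which share no library with d17, showed most of the same differences, but their C57BL/6J libraries also held reads of AKR/J genes. Of the 78 genes described above, 37, 52 and 52 were under 10% of the AKR/J mean of d17 in the C57BL/6J libraries of d12 and 33, 41 and 47 in those of d15. On d15, where 41.1% of tested genes were called, 67 of the 76 tested genes that were higher on d17 were called higher and none lower, against 18.8% called higher among all genes tested on d15. Of the 67 tested genes that were lower on d17, 59 were called lower and none higher, against 22.3%. On d12, where 28.6% were called, 36 of 73 were called higher (14.5% of all genes) and 32 of 60 lower (14.1%), and none was called in the opposite direction. The calls of d12 rest on single libraries, since 5529 genes were called with all 6, 25 without C57BL/6J d12 replicate 2 and 1369 to 1630 without any one of 3 others. In all, 65 of the 150 genes were called in the same direction on d12, d15 and d17, 34 higher and 31 lower. Myo7a was at -4.36 on d15 and -3.50 on d12, Nav1 at -1.87 and -2.15, Hddc3 at 2.21 and 2.23, and Alad at 0.90 and 1.85. Rpsa-ps10 was not called on d15 (3.49, SE 1.70, adjusted p = 0.142), since C57BL/6J replicate 3 of that day was at 102 CPM and the other two at 0.126 and 0.159 CPM.

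**Figure D5:**
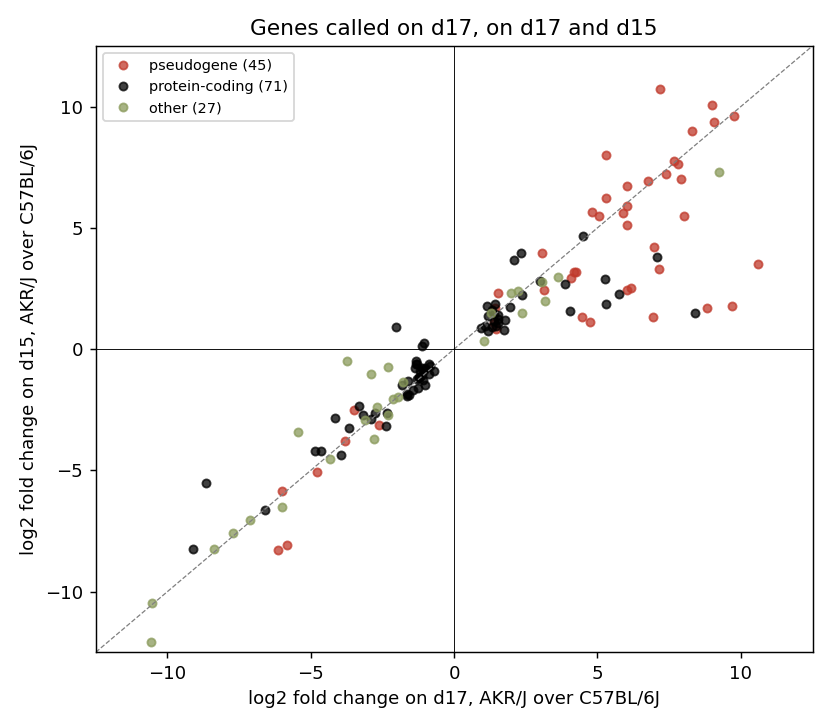
Log2 fold change of AKR/J over C57BL/6J on d17 (x axis) and d15 (y axis) for the called genes of d17 that were also tested on d15, colored by kind of gene, with the line of equal change dashed. Of the genes higher on d17, 76 of 76 lie above 0 on d15, and of those lower on d17, 64 of 67 lie below 0, and some pseudogenes such as Rpsa-ps10 (10.60 and 3.49) lie far below the line.

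Cav1-null fetuses of d17 were compared with the same libraries, so that these values are not independent of the strain comparison. AKR/J over Cav1-null was called higher for 76 of the 77 genes that rose (5.73% of all genes) and lower for 68 of the 69 tested genes that fell (6.67%). Myo7a was at -3.66, Hddc3 at 2.68 and Hmgb1-ps7 at 6.64 in AKR/J over Cav1-null. Cbs was at -0.99 there and at -1.63 in AKR/J over C57BL/6J. C57BL/6J over Cav1-null gave 10 calls of 20358 genes (0.0491%), of which 9 were higher (0.0442%) and 1 lower (0.00491%). A change of the strain difference between d15 and d17 was called for 1 of 21373 genes (0.00468%), the pseudogene Gm13736, whose difference was larger on d17, but 823 genes were called without C57BL/6J d17 replicate 1. Gm13736 is one of the 78 genes whose levels were compared above between libraries labelled C57BL/6J.

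Development from d15 to d17 in Cav1-null fetuses, which again shares no library with the comparison, was used to ask whether genes that change late in gestation differed between the strains. Of 2921 genes that rose from d15 to d17 in Cav1-null fetuses, 18.6% were above 0 in AKR/J over C57BL/6J on d17 and the median was -0.33, with 2 called higher (0.381% of all genes) and 19 lower (0.361%). Of 2577 that fell, 74.5% were above 0 and the median was 0.24, with 7 called higher and 5 lower. Of the remaining 14033 genes, 46.8% were above 0 and the median was -0.04. Relative to the Cav1-null mean of d15, the genes that rose stood at a median of 0.23, 0.26 and 0.31 in the AKR/J libraries and at 0.56, 0.51 and 0.56 in C57BL/6J, and the strains did not overlap. The genes that fell stood at -0.17, -0.20 and -0.26 in AKR/J and at -0.66, -0.35 and -0.42 in C57BL/6J. The part of the GC trend in these medians was not tested.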

How the data were processed

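The groups follow the strain and the day that the labels give. The authors purified poly-A RNA, sequenced 27 libraries, trimmed the reads with cutadapt and fastp and mapped them to GRCm39 with STAR. The deposited read counts per Ensembl gene are whole numbers without normalization, and the counting tool, its strand setting and its handling of reads with several matches are not given in the sources used here. The deposited junction table gives counts of reads across splice junctions after the authors' filter on multi-mapped reads and short overhangs, so that a listed 0 need not be a count of 0.

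The 6 libraries of d17 were fitted in R 4.3.3 with edgeR 4.0.16 (filterByExpr, TMM, quasi-likelihood test, Benjamini-Hochberg adjusted p under 0.05 over all genes tested). Standard errors (SE) were obtained by dividing the size of the log2 fold change by the root of its F statistic. The study calls the replicates biological, but whether fetuses shared a litter is not given. CPM values used the library total alone. Sums of a gene list cover all its members in the read-count table, tested or not. To remove the trend with GC content and length, a smooth curve of each library's deviation from the mean of the 6 was added to its offset. Gene structure and sequences came from the GRCm39 annotation, in which 98.8% of gene IDs were found, and pseudogenes were matched to coding transcripts with blastn.

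The comparison, its members and the gene lists were chosen with earlier results of these data known. By rule, the text names the 10 largest rises and the 10 largest falls among called genes with strains that do not overlap, a mean log2 CPM of 3 or more and a symbol other than Gm, Rik or a bare ID, up to 4 called members of each list per direction, the members of the strain variant and MHC lists (those with small differences are given together, as a departure from the rule), 5 genes with reads in 1 strain only, the label checks and called genes of the interaction. All other named genes, and the rules for strain genes and junctions, were picked once values had been seen. As alternatives, DESeq2 1.42.0, a likelihood ratio test in edgeR, other scalings, filters and models, a block by replicate number and fits without 1 library were run. The fit was tested on simulated data.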

Additional observations from a re-analysis of the deposited data

Results flagged for a closer look

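A change of the difference between AKR/J and C57BL/6J from d15 to d17 was called for 1 gene of 21373. The test was an interaction of strain and day over 12 libraries, of which 6 are the libraries of d17. Without C57BL/6J d17 replicate 1, 823 genes were called. Gm13736, a processed pseudogene on chromosome 2 whose closest coding match is Srp9, had an interaction of 7.99 on the log2 scale (SE 0.50, adjusted p = 3.47e-05, edgeR's quasi-likelihood test). Its level in AKR/J was 12.7, 14.2 and 10.1 CPM on d15 and 12.4, 12.9 and 12.9 CPM on d17. In C57BL/6J it was at 3.70, 2.94 and 2.98 CPM on d15, while the libraries of d17 held 0, 0 and 1 reads. On d12, C57BL/6J was at 0.0315, 0.0857 and 6.35 CPM, and the 9 Cav1-null libraries had at most 0.276 CPM on any day. Gm13736 is one of the 78 genes found in AKR/J and not in Cav1-null fetuses on d12 and d15. Many of those varied among the libraries labelled C57BL/6J. Whether the day or the fetuses sampled set this change was not tested. The size of the interaction depends on the prior count of the fit, since the C57BL/6J libraries of d17 held 1 read in all.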

How the results depend on the processing

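Of 150 calls on d17, 150 kept their sign wherever they were tested. The number of calls was 1165 with DESeq2, 1192 with the likelihood ratio test, 905 with no filter, 54 with at least 10 reads in every library, 838 in 1 model of 27 libraries and 640 in 1 model of the 9 d17 libraries. With 2 alternatives chosen after seeing the data it was 2516 against Cav1-null in place of C57BL/6J, where Cav1 turned to 6.27, and 238 with the trend with GC content and length removed. RLE factors, library sizes alone and a 2-fold threshold stayed within 1.5 times. Leaving out a library gave 54 to 5478 calls on d17 (64, 64 and 54 without AKR/J replicates 1, 2 and 3, and 265, 5478 and 68 without C57BL/6J replicates 1, 2 and 3), 25 (without C57BL/6J replicate 2) to 8009 on d12 against 5529 (1369, 1529 and 1630 without AKR/J replicates 1 and 3 and C57BL/6J replicate 1), 1 to 823 (without C57BL/6J d17 replicate 1, 8 without its replicate 3, 5 without AKR/J d15 replicate 1 and 2 without C57BL/6J d15 replicate 2 or 3) for the interaction against 1, and 28 to 2659 for the same direction on d12, d15 and d17 against 65 (2659 without C57BL/6J d17 replicate 2). The interaction gave 43 calls with DESeq2, 73 with the likelihood ratio test, 4 with no filter and 0 with at least 10 reads in every library, by edgeR's quasi-likelihood test, where 990 genes had an unadjusted p under 0.05. The same direction gave 619, 534, 501 and 27 under these settings. Deviations of same-numbered libraries of the strains had correlations of 0.39, 0.23 and -0.02. Those of differently numbered libraries ranged from -0.40 to 0.23, so that these values do not settle whether the numbers pair the samples. With the replicate block 638 genes were called on d17 and 366 in the same direction. On d15 and in Cav1-null fetuses, 8089 and 5530 calls stayed within 1.5 times in every alternative run. The causes of these changes were not tested. For genes with at most 3 reads in a strain, depth sets only a lower bound on the difference.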

Other observations

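With the trend of each library with GC content and transcript length removed, an alternative chosen after seeing the data, 238 of 20088 genes were called, of which 98 were further calls, 43 higher and 55 lower in AKR/J, of which 73 were protein-coding and 96 had levels that did not overlap between the strains, as 26.1% of all genes had. In that fit 3 of 28 tested genes of the oligodendrocyte lineage list were called lower, against 123 of 20088 among all genes. None of the list was called without the removal of the trend. Gpr17, a receptor of committed precursors, was at 5.23, 7.24 and 7.97 CPM in AKR/J and at 24.1, 13.6 and 20.7 CPM in C57BL/6J (log2 fold change -1.25 with the trend removed, SE 0.22, adjusted p = 0.0363), and Pdgfra, the growth factor receptor of these cells, was at 26, 26.2 and 29.2 CPM against 71.8, 45.7 and 52.5 CPM (-0.93, SE 0.16, adjusted p = 0.0288). Lhfpl3, the remaining called gene of the list, was at 22.1, 24.5 and 22.6 CPM against 23.5, 33.9 and 32.2 CPM (-0.60, SE 0.11, adjusted p = 0.0446), and the strains overlapped. Of 39 tested astrocyte genes, 3 were called lower with the trend removed, against 123 of 20088 among all genes. They were Agt, Apoe (-1.07, SE 0.18, adjusted p = 0.0294) and Slc6a11, a GABA transporter (-1.58, SE 0.29, adjusted p = 0.0379). P2ry12, a receptor of microglia, was at 13.1, 14.1 and 15.4 CPM against 4.21, 7.24 and 7.28 CPM and was higher (0.91, SE 0.16, adjusted p = 0.0366), while the microglia list as a whole had 13 genes above and 17 below 0, a median of -0.05 and no call with all libraries and no removal of the trend. Apart from Agt, none of these genes passed the test without the removal of the trend, with adjusted p values in that fit of 0.059 for Gpr17, 0.075 for Pdgfra and 0.0572 for P2ry12. The choice of these genes was made on their values.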
